A study of Mus musculus with 9 samples.

Results

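The genes described here are the snoRNA host lncRNAs Gas5, Snhg1, Snhg3, Snhg6, Snhg8, Snhg11, Snhg12, Snhg14 and Snhg20 in the mouse trigeminal ganglion (TG). They were chosen by name, through the GENCODE gene name of each transcript in the lncRNA table, and no measured value entered the choice. Of the 9 names, 8 were found among the 10232 genes of that table. Snhg11 is annotated as protein coding in the release used, was found among the mRNAs, and is given separately throughout. RNA-seq was performed on the unilateral TG of wild-type (WT) male C57BL/6 mice, 8 weeks old, with 3 libraries in each of 3 groups and 3 mice pooled in each library. In the CFA3D and CFA6D groups, 10 µl of complete Freund's adjuvant (CFA, 5 mg/ml) was injected into the temporomandibular joint (TMJ) under isoflurane, and the TG was collected on day 3 or day 6. In the saline group, 10 µl of saline was injected, and the TG was collected on day 3, so no saline group of day 6 was compared. The comparisons asked which RNAs of the TG differed on either day of joint inflammation.

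Small nucleolar RNAs (snoRNAs) guide the modification and processing of ribosomal and other RNAs, and most mammalian snoRNAs are cut out of the introns of longer host transcripts. Box C/D snoRNAs guide 2′-O-methylation and box H/ACA snoRNAs guide pseudouridylation. Many host genes of this kind encode no protein, begin with the pyrimidine tract of 5′ terminal oligopyrimidine (TOP) RNAs, and give spliced RNAs that are short-lived because translation leads to their nonsense-mediated decay. Gas5 (growth arrest specific 5) carries its box C/D snoRNAs in successive introns, and its spliced RNA can bind the glucocorticoid receptor.

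On GRCm38, Gas5 lies at chr1:161034422-161038539 and Snhg1 at chr19:8723475-8726443, both on the plus strand. Snhg3 (chr4:132348014-132353686, minus strand) and Snhg12 (chr4:132308623-132311024, plus) are neighbours on chromosome 4, and Snhg6 (chr1:9941959-9944118, minus) is on the chromosome of Gas5. Snhg8 lies at chr3:123507552-123508404 (minus), Snhg11 at chr2:158375638-158386145 (plus) and Snhg20 at chr11:117076008-117078955 (plus). Snhg14, at chr7:59307924-59975759 (minus), is by far the longest, and 208 of the 238 snoRNA entries annotated inside the 9 hosts lie in it.

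The box C/D snoRNAs of Gas5 with the highest levels are shown first. Of these, Gm22357 is retained in Gas5-218, which is described below. Snord80 and Gm25789 are retained only in Gas5 forms that are not described below. Capitals mark the first TGATGA (box C) and the last CTGA (box D) found on the snoRNA's own strand. Both motifs were found in 8 of the 10 Gas5 snoRNA entries. The sequences are those of GENCODE for GRCm38, at chr1:161036057-161036139, chr1:161037604-161037680 and chr1:161038308-161038383, all on the plus strand.
Gm22357: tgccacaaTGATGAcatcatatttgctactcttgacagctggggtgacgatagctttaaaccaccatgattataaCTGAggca
Snord80: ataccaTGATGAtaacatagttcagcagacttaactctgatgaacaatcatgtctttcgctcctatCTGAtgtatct
Gm25789: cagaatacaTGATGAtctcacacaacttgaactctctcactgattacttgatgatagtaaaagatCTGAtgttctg

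Snhg3 hosts 2 box H/ACA snoRNAs, Snora73a and Snora73b, copies of the U17 snoRNA of ribosomal RNA processing. They are shown because the level of Snhg3 turned on an exon that overlaps the former. Both are 205 bases long and lie on the minus strand, at chr4:132352775-132352979 and chr4:132352322-132352526 of GRCm38. They match at 198 of 205 positions (96.6%), so reads within them can be difficult to assign to one copy. Capitals mark the 159 bases of Snora73a that are also in the first exon of the transcript Snhg3-202.
Snora73a: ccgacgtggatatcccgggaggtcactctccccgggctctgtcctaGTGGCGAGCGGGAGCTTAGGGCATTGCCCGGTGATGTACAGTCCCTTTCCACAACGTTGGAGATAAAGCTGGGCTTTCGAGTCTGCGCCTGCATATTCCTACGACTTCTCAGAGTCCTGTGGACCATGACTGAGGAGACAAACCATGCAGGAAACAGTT
Snora73b: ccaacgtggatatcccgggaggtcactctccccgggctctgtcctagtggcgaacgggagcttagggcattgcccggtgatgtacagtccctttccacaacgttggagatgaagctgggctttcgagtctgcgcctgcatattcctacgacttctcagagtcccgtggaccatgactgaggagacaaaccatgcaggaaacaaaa

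The starts of the host genes are shown because the TOP tract is a feature that the choice by name did not use. RefSeq start sequences on GRCm38.p6 were matched for 8 of the 9 host genes, the exception being Snhg6. The start matched for Snhg14, at chr7:60450158-60450197, lies outside the span given for Snhg14 above. A C followed by at least 4 bases that are each C or T, beginning within 5 bases of an annotated start on the gene's own strand, was searched for. It was found in 4 of these 8 genes, which have 9 starts between them, and at 18.3% of all 32851 starts. Gas5 has a further start without the tract. The 20 bases before and 20 bases from each host start with a tract are given with the tract in capitals, at chr1:161035146-161035185 (plus strand), chr4:132353667-132353706 (minus), chr3:123508317-123508356 (minus) and chr4:132308658-132308697 (plus). A match is a description of the letters only.
Gas5: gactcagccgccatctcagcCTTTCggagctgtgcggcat
Snhg3: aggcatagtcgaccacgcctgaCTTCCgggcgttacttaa
Snhg8: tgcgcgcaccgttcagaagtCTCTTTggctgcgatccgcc
Snhg12: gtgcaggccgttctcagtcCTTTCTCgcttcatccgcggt

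Values are in FPKM, fragments per kilobase of transcript and per unit of library size. From the steps of the low values, 1 read pair on 1 kb was worth 0.0238 to 0.0333 FPKM, the smaller the deeper the library. All 10 sensory neuron markers were found, with summed levels of 2191 to 3371 FPKM. Markers of tissues next to the TG varied between libraries. The pituitary list was at 10611 FPKM in saline replicate 3 and at 8.89 to 1114 in the other 8, the skeletal muscle list at 135 in saline replicate 2 and 52.4 in CFA6D replicate 6 against 0.908 to 33.3 in the other 7, and the adipocyte list at 112 in saline replicate 2 and at most 4.6 elsewhere. The bone list was at 190 in CFA6D replicate 6, against 27.2 to 67.5 in the other 8, and the blood list at 3779 there and 3846 in saline replicate 2, against 1102 to 2643 in the other 7. CFA6D replicate 6 stood at 68.3 on the first principal component of the lncRNA gene sums, away from the other libraries. On the second, saline replicate 3 stood at 46.8 and saline replicate 2 at -34, with the others from -11.6 to 13.4. The part of these tissues in the values below was not tested, and results are also given without a library that decides them. A single unnamed transcript held 62081 of the 70257 FPKM of lncRNAs in CFA6D replicate 4, and without it that library was at 8176, within the 8151 to 8911 of the others. In a whole ganglion, fewer cells of a type and less RNA per cell cannot be told apart.

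The host genes covered a wide range of levels, in an order that changed little from group to group (the plot of summed FPKM by library). In saline, Snhg11 was highest at 117 FPKM, followed by Snhg3 at 58.6, Gas5 at 54.2, Snhg8 at 21.3, Snhg14 at 21.0, Snhg6 at 9.92, Snhg20 at 7.23, Snhg1 at 6.03 and Snhg12 at 2.92 (means of 3 libraries). In that order, the libraries of Snhg3 and Gas5, of Snhg8 and Snhg14, of Snhg6 and Snhg20, and of Snhg20 and Snhg1 overlapped, and the other neighbours did not. The order on CFA3D was the same. On CFA6D, Gas5 stood above Snhg3 and Snhg14 above Snhg8, and the libraries of each of these pairs overlapped.

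**Figure D1:**
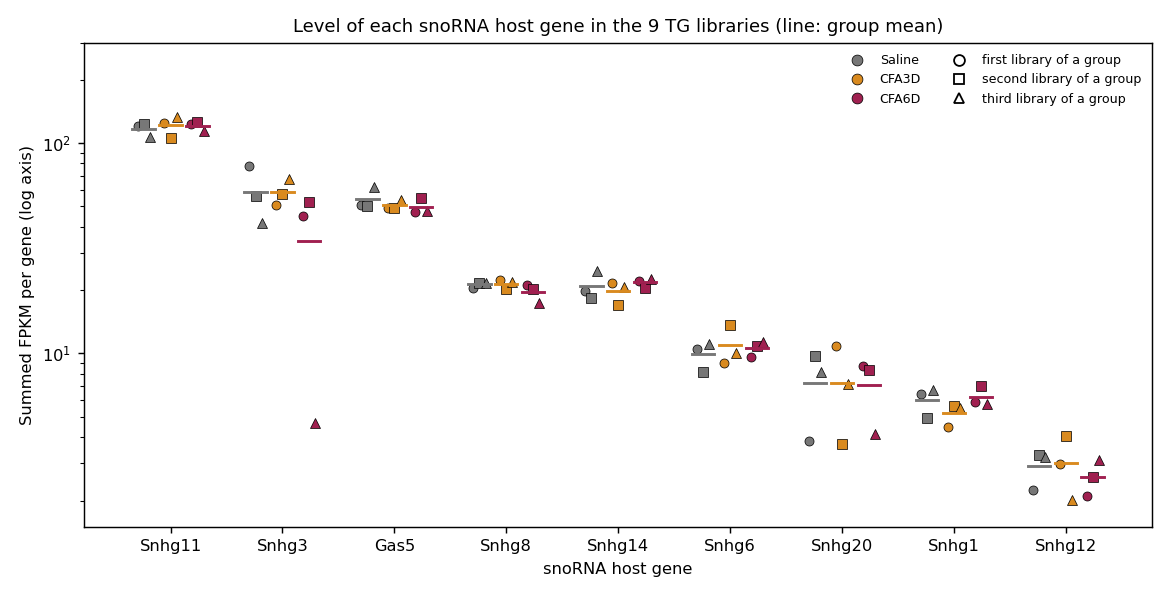
Summed FPKM of each host gene on a log axis, ordered by the saline mean, with 1 point per library (n = 3 per group, marker shape for the library) and a line at each group mean. Both CFA groups overlap with saline for every gene, the CFA6D points of Snhg1 lie above its CFA3D points, 1 CFA6D library of Snhg3 is at 4.67 FPKM, and Snhg20 has 1 low library in each group.

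Gas5 was similar in all 9 libraries. Its summed level was 50.7, 50.3 and 61.6 FPKM in saline, 49.2, 49.1 and 53.7 on CFA3D, and 46.8, 54.9 and 47.7 on CFA6D, with means ± SD of 54.2 ± 6.43, 50.7 ± 2.65 and 49.8 ± 4.44 (n = 3 each). The groups overlapped, and saline replicate 3, the library with the high pituitary list, was the highest of all. The log2 fold change against saline was -0.09 ± 0.13 (SE) on CFA3D and -0.12 ± 0.13 on CFA6D (limma, adjusted p = 0.998 and 0.9). Without saline replicate 3 these values were 0.003 and -0.02, and the 95% intervals with all libraries ran from -0.38 to 0.20 and from -0.41 to 0.17.

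Snhg8, host of Snora24, and Snhg14 also stayed close to their saline level. Snhg8 was at 20.5, 21.7 and 21.7 FPKM in saline, 22.4, 20.2 and 21.9 on CFA3D, and 21.1, 20.3 and 17.4 on CFA6D. CFA6D replicate 6 was the lowest, and the groups overlapped. Snhg14 is an imprinted RNA, expressed from the paternal copy, that runs over the Snord116 and Snord115 clusters and antisense to Ube3a. It was at 19.9, 18.3 and 24.7 FPKM in saline, 21.7, 17.0 and 20.6 on CFA3D, and 22.2, 20.5 and 22.7 on CFA6D, with overlap of all groups.

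Snhg6, the host of Snord87, was at 10.5, 8.18 and 11.1 FPKM in saline, 9.05, 13.6 and 10.1 on CFA3D, and 9.65, 10.9 and 11.3 on CFA6D. Snhg1, the host of Snord22 and other box C/D snoRNAs, was at 6.45, 4.96 and 6.67 FPKM in saline, 4.47, 5.63 and 5.52 on CFA3D, and 5.90, 7.04 and 5.74 on CFA6D. For Snhg6 all groups overlapped, whereas every CFA6D library of Snhg1 was above every CFA3D library. Between these days, 11.9% of all 4354 lncRNA gene sums tested did not overlap, and the Snhg1 difference of 0.25 ± 0.16 did not pass (limma, adjusted p = 0.964). Snhg12, the lowest of the hosts, was at 2.25, 3.29 and 3.21 FPKM in saline, 2.99, 4.06 and 2.02 on CFA3D, and 2.11, 2.58 and 3.11 on CFA6D, again with overlap.

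Snhg20 differed between libraries of the same group rather than between groups. It was at 3.82, 9.68 and 8.18 FPKM in saline, 10.8, 3.70 and 7.19 on CFA3D, and 8.72, 8.33 and 4.14 on CFA6D, so each group held 1 library between 3.70 and 4.14 and 2 libraries between 7.19 and 10.8. The difference lay in Snhg20-202, a spliced transcript of 600 bases. Snhg20-202 was at 2.29, 1.59 and 1.91 FPKM in the 3 low libraries and at 5.25 to 8.36 in the other 6. The log2 fold change of Snhg20 against saline was -0.03 ± 0.45 on CFA3D and -0.004 ± 0.45 on CFA6D, with 95% intervals from -1.04 to 0.98 and from -1.01 to 1.01, so changes of less than about that size were not detectable.

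Snhg11, a host gene with expression largely in neurons, was the most abundant of the set and varied little. It was at 121, 123 and 107 FPKM in saline, 125, 106 and 133 on CFA3D, and 123, 126 and 114 on CFA6D. These groups overlapped, and its log2 fold change was 0.05 ± 0.10 on either day (limma, adjusted p = 0.997 and 0.886). Between 72.6% and 80.8% of its level came from Snhg11-201, a transcript of 5864 bases.

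Snhg3 carried the largest difference between groups, and this difference rested on 1 library. It was at 77.9, 56.0 and 41.8 FPKM in saline, 51.0, 57.4 and 67.3 on CFA3D, and 45.0, 52.5 and 4.67 on CFA6D. CFA6D replicate 6 was far below the other 8 libraries, while replicates 4 and 5 lay within the range of saline. The log2 fold change on CFA6D was -1.34 ± 0.74 (limma, adjusted p = 0.782), and -0.22 without CFA6D replicate 6. Without replicate 4 or replicate 5 it was -1.84 or -1.95 and passed, as did the difference from CFA3D.

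The low value belonged to a single Snhg3 transcript. Snhg3-202, with 2 exons and 581 bases, was at 74.6, 53.2 and 38.6 FPKM in saline, 48.6, 52.8 and 63.8 on CFA3D, 42.8 and 48.4 in 2 CFA6D libraries and 1.63 in CFA6D replicate 6, equal to about 902 to 1334 read pairs in 8 libraries and 36 in the last. Snora73a, which shares 159 of its 205 bases with the first exon of Snhg3-202 (capitals above), went the opposite way in that library. It was at 18.4 to 31.0 FPKM in 8 libraries and at 120 in CFA6D replicate 6.

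Multiplied by length to put the reads of both on one scale, Snhg3-202 and Snora73a together came to 26.2 to 49.7 FPKM × kb in 8 libraries and to 25.5 in CFA6D replicate 6, just under the lowest of the others. Snora73a held 12.8% to 14.4% of that sum in 8 libraries and 96.3% in replicate 6 (the bar plot of Snhg3-202 and Snora73a). The other 4 Snhg3 transcripts summed to 2.19 to 4.58 FPKM in 8 libraries and to 3.04 in replicate 6, within that range. Snora73b, which lies between the exons of Snhg3-202, was at 208 to 372 FPKM in 8 libraries and at 131 in replicate 6. With Snora73b added, the sum was 77.8 to 119 FPKM × kb in 8 libraries and 52.4 in replicate 6, below all of them. Against saline on CFA6D, neither Snora73a (0.61 ± 0.57, limma, adjusted p = 0.904) nor Snora73b (-0.17 ± 0.30, adjusted p = 0.949) passed.

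**Figure D2:**
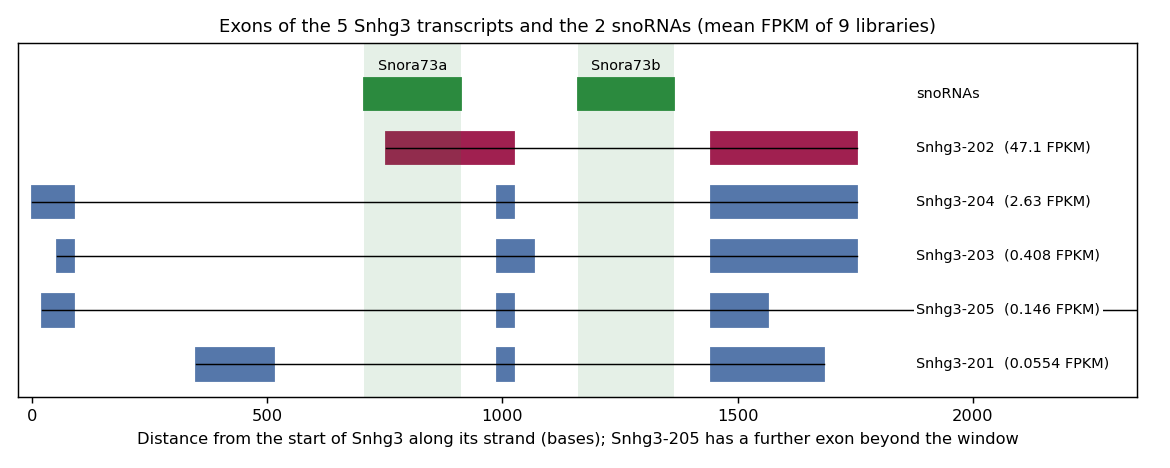
Exons (boxes) of the 5 annotated Snhg3 transcripts and the 2 snoRNAs against the distance in bases from the start of Snhg3 along its strand, with each transcript's mean FPKM over 9 libraries. The first exon of Snhg3-202 begins inside Snora73a, and the other 4 transcripts have Snora73a and Snora73b between exons.

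Summed without Snhg3-202, Snhg3 ranked 7 of 8 in saline in place of 1 of 8. Its log2 fold change was then 0.14 ± 0.26 on CFA3D and -0.03 ± 0.26 on CFA6D (limma, adjusted p = 0.998 and 0.989). That sum was chosen after the values were seen. Snhg3-204, the next transcript, has 3 exons and both snoRNAs in its introns. It was at 2.35, 2.42 and 2.24 FPKM in saline, 2.25, 4.25 and 2.85 on CFA3D, and 1.77, 3.02 and 2.54 on CFA6D, with overlapping groups.

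**Figure D3:**
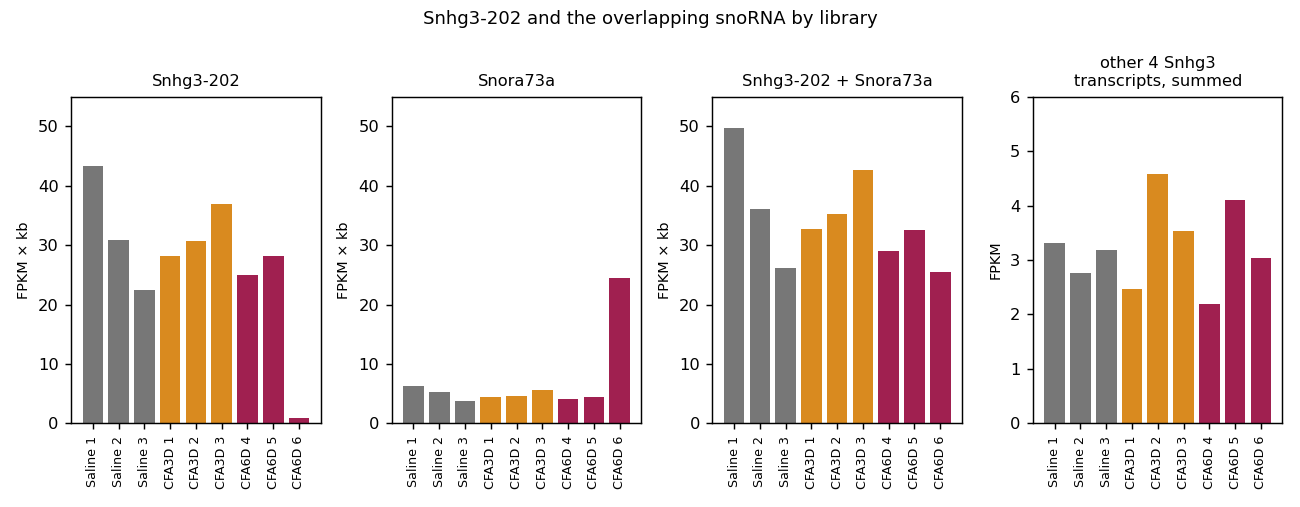
Bars, from 0, of Snhg3-202, Snora73a and their sum as FPKM × kb, and of the other 4 Snhg3 transcripts as FPKM, in each of the 9 libraries. In CFA6D replicate 6 the bar of Snhg3-202 is at 0.946 and that of Snora73a at 24.5 FPKM × kb, while their sum (25.5) and the remaining transcripts (3.04) are near the other libraries.

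Across the 8 host genes annotated as lncRNA, 0 passed in any comparison (limma, unadjusted p under 0.05). The smallest unadjusted p was 0.248 on CFA3D, 0.101 on CFA6D and 0.0932 between the days, and the smallest adjusted p 0.998, 0.782 and 0.921. Of all 4354 lncRNA gene sums tested, 3.77%, 7.42% and 5.56% passed. The median log2 fold change of the hosts was -0.01 on CFA3D, with 4 values above and 4 below 0, and -0.06 on CFA6D, with 3 above and 5 below, and that of all gene sums was 0.02 and -0.01. Changes were under 0.25 in size for 8 of 8 hosts on CFA3D and 7 of 8 on CFA6D, the exception being Snhg3 (the plot of changes with intervals). Both CFA groups were compared with the same saline libraries.

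**Figure D4:**
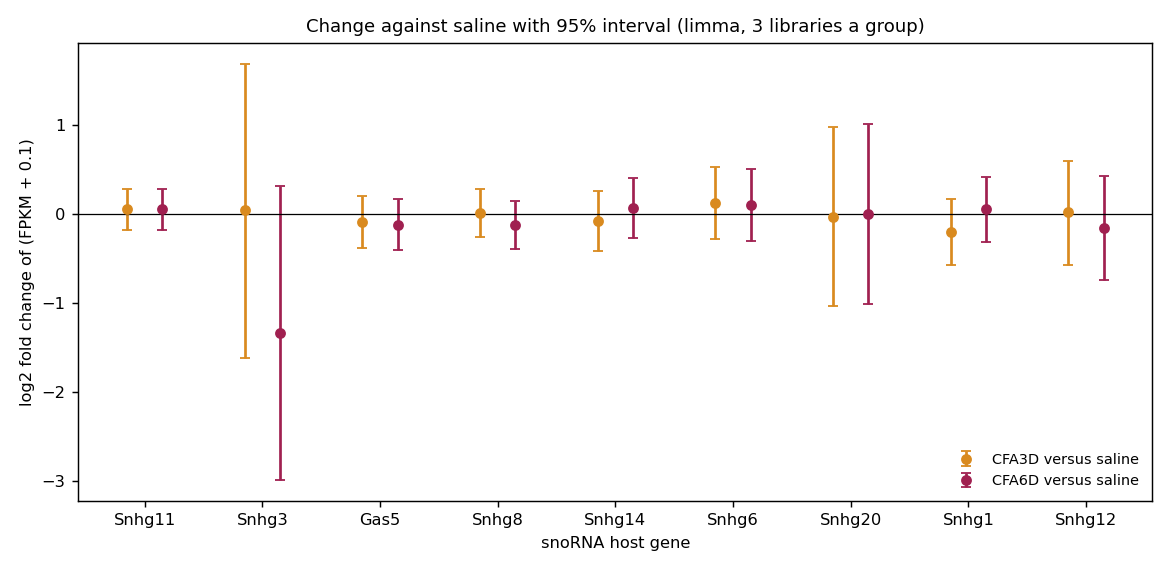
Log2 fold change of each host gene on CFA3D and CFA6D against saline, with 95% intervals from limma (3 libraries per group, Snhg11 from the mRNA table). The interval of every host gene holds 0; it is narrowest for Snhg11 and widest for Snhg3, whose CFA6D value of -1.34 has an interval from -2.99 to 0.31.

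The host genes are annotated with many alternative transcripts, and some of these passed where the sums did not. For the 8 lncRNA hosts, 88 transcripts were listed, and the 73 whose mean reached 0.1 FPKM were tested. Of these, 5 passed on CFA3D (6.85%, against 4.02% of 5672 transcripts in the table), 8 on CFA6D (11%, against 6.73%) and 7 between the days (9.59%, against 5.84%). The smallest adjusted p was 0.491, 0.34 and 0.603. Groups that do not overlap, with CFA lower, were found for 3.95% of all tested lncRNA transcripts on CFA3D and 6.06% on CFA6D. The median change of all 73 was -0.06 on CFA3D and 0.01 on CFA6D, beside 0.02 and -0.01 for all transcripts tested.

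Gas5 had 25 transcripts, of which 20 are annotated as retaining an intron and together made up 37.2% to 48.2% of its level. The most abundant, Gas5-224, has 12 exons in 502 bases and no snoRNA in its exons. It was at 22.3, 15.2 and 22.7 FPKM in saline, 16.8, 20.9 and 19.5 on CFA3D, and 13.8, 22.6 and 16.8 on CFA6D, with overlap and no pass (limma, CFA6D against saline -0.19 ± 0.22, adjusted p = 0.91). A further 5, less abundant Gas5 transcripts fell on CFA6D at an unadjusted p under 0.05, and 2 of these also fell on CFA3D. The difference in change between the forms was not tested.

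Gas5-218, the longest form at 2556 bases, retains introns with Gm22357, Snord78 and 4 further snoRNA entries, among them Mir5117, typed as a snoRNA in the annotation. It was at 3.35, 3.48 and 3.80 FPKM in saline, 3.21, 3.76 and 3.20 on CFA3D, and 2.58, 2.91 and 2.59 on CFA6D. Every CFA6D library was below every library of the other groups, and the log2 fold change was -0.38 ± 0.13 (limma, adjusted p = 0.666). It no longer passed without CFA6D replicate 4 (-0.35) or 6 (-0.36).

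Gas5-205, which retains the intron with Snord78, was at 0.853, 0.855 and 0.645 FPKM in saline, 0.694, 0.783 and 0.435 on CFA3D, and 0.259, 0.255 and 0.359 on CFA6D. The CFA6D libraries were again below all others, by -1.18 ± 0.24 against saline (limma, adjusted p = 0.34), and the pass held without any 1 library. Gas5-205 rested on about 6.92 to 22.5 read pairs a library. Gas5-225, which retains the intron of Mir5117 and 44 of the 77 bases of Snord47, was at 0.466, 0.518 and 0.425 FPKM in saline, 0.125, 0.1 and 0.0942 on CFA3D, and 0.266, 0.372 and 0.258 on CFA6D. The 3 groups of Gas5-225 did not overlap, with CFA3D lowest at -1.47 ± 0.22 against saline (limma, adjusted p = 0.491). These levels equal about 1.26 to 6.32 read pairs a library, and its CFA6D difference from saline (-0.52) lost its pass without any of 7 of the 9 libraries.

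The spliced forms Gas5-203 and Gas5-217 also fell. Gas5-203 was at 0.836, 0.762 and 0.752 FPKM in saline, 0.433, 0.246 and 0.376 on CFA3D, and 0.415, 0.538 and 0.470 on CFA6D, so all CFA libraries were below all saline libraries. Its log2 fold change was -0.99 ± 0.21 on CFA3D (limma, adjusted p = 0.951) and -0.62 ± 0.21 on CFA6D (adjusted p = 0.656), and the CFA6D pass was lost without CFA6D replicate 4 (-0.55). Gas5-217 was at 0.568 to 0.912 FPKM in saline and 0.224 to 0.561 on CFA6D, and its pass was lost without any of 4 libraries (saline 1 or 3, CFA6D 5 or 6, -0.98 to -0.83). Gas5-203 rested on about 6.48 to 20.1 read pairs a library and Gas5-217 on about 3.66 to 15.8. The summed retained-intron forms of Gas5 were at 18.8 to 26.9 FPKM in saline, 21.5 to 23.5 on CFA3D and 18.7 to 21.9 on CFA6D, and overlapped.

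**Figure D5:**
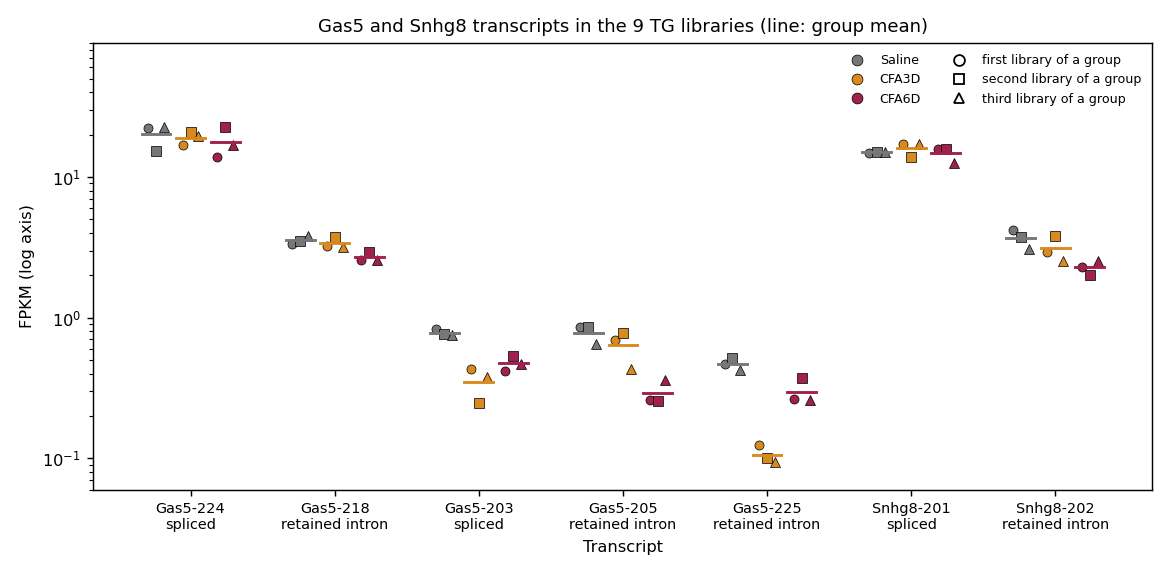
FPKM, on a log axis, of 5 Gas5 and 2 Snhg8 transcripts in each library (n = 3 per group, marker shape for the library), with a line at each group mean. The CFA6D points of Gas5-218, Gas5-205, Gas5-225 and Snhg8-202 lie below the saline points, as do those of the spliced Gas5-203. Those of the spliced Gas5-224 and Snhg8-201 overlap with saline.

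In Snhg8 the retained-intron form fell on CFA6D. This form, Snhg8-202, is a single exon of 776 bases that holds all 130 bases of Snora24. It was at 4.19, 3.74 and 3.10 FPKM in saline, 2.94, 3.83 and 2.54 on CFA3D, and 2.30, 2 and 2.53 on CFA6D. All CFA6D libraries were below all saline libraries, by -0.66 ± 0.19 (limma, adjusted p = 0.539), and the pass held without any 1 library. Snora24 itself was at 4.6, 3.99 and 2.16 FPKM in saline, 2.41, 4.09 and 3.79 on CFA3D, and 2.29, 2.43 and 1.95 on CFA6D, which did not pass on CFA6D (-0.60 ± 0.29, adjusted p = 0.82). Spliced Snhg8-201 was at 14.9 to 15.1 FPKM in saline and 12.6 to 15.8 on CFA6D, with a change of -0.03 ± 0.14.

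The other transcripts that passed against saline came from 4 hosts and had low levels. Snhg1-209, a retained-intron form of 312 bases, fell on CFA3D (0.604 to 0.887 FPKM, against 1.16 to 1.89 in saline) and was at 1.35 to 2.32 on CFA6D. Snhg14-202 fell on CFA3D (0.0532 to 0.26, against 0.346 to 0.444), a pass that was lost without saline replicate 2 (-1.05) or CFA3D replicate 3 (-0.82). Snhg14-215, a single-exon entry of 294 bases, rose on CFA6D (0.7 to 0.878, against 0.0815 to 0.381), by 1.49 ± 0.34 (limma, adjusted p = 0.346). It rested on about 0.72 to 9.69 read pairs a library. Snhg20-203, which holds the whole scaRNA Gm26083 (a guide RNA of the Cajal body), was higher on CFA3D (0.71 ± 0.31, adjusted p = 0.998), but lost its pass without any of 8 of the 9 libraries. Snhg3-205 was listed at 0.141, 0 and 0 FPKM in saline and at 0.149 to 0.478 on CFA6D, at most about 5.96 read pairs, and its pass was lost without saline 2 or 3 or CFA6D 5 or 6 (1.09 to 1.5).

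Within the 9 hosts, the table of other noncoding RNA listed 238 snoRNA entries, of which 125 were tested. Outside Snhg14 there were 30 entries, 16 were tested and 0 passed in any comparison, where 4.44%, 6.37% and 5.44% of all 7989 tested transcripts of that kind passed on CFA3D, on CFA6D and between the days. Short snoRNAs are largely lost from libraries made of RNA fragments, so these values describe what such libraries hold and not the mature snoRNA pool. The entries of one host differed widely. In Gas5, Gm22357 was at 14.4 to 22.1 FPKM, Snord80 at 1.93 to 5.62 and Gm25789 at 1.83 to 3.78, and 6 of the 10 entries had a mean under 0.1 FPKM. The change of Gm22357 on CFA6D was -0.26 ± 0.16 (limma, adjusted p = 0.861).

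In Snhg1, Snord22 was at 25.1 to 51.6 FPKM, several times the level of its host, and 5 of the 8 entries were not tested. The 5 remaining hosts are given by their most abundant entry. Gm26083 in Snhg20 was at 15.7 to 31.0 FPKM, Gm25129 in Snhg11 at 5.37 to 11.8, Snora44 in Snhg12 at 4.26 to 6.97, Snora24 in Snhg8 at 1.95 to 4.6 and Snord87 in Snhg6 at 0.166 to 1.39. Snord87 changed by -0.69 ± 0.46 on CFA6D (limma, adjusted p = 0.867) and did not pass.

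Snhg14 holds 208 entries, most of them near-identical copies of its clustered snoRNAs, so their values are uncertain. Of 109 tested, 7 passed on CFA3D and 9 on CFA6D, which is 5.6% and 7.2% of all 125 entries tested in the hosts, beside the 4.44% and 6.37% above. Between the days 12 passed (9.6%, beside 5.44%). These shares count the 16 tested entries outside Snhg14, of which 0 passed, so the shares within Snhg14 alone are higher. On CFA3D, Gm22496, Gm24872 and Gm24926 rose and Gm22252, Gm25089, Gm24618 and Gm25074 fell. Of these, Gm22496 lost its pass without saline 1 or CFA3D 2 (0.64 to 0.96), Gm25074 without saline 1 (-0.78), and Gm22252, Gm25089 and Gm24618 without any of 5, 4 and 7 libraries. On CFA6D, Gm22496, Gm24220, Gm26466, Gm22834, Gm24926, Gm22632 and Gm23047 rose and Gm26488 and Gm22996 fell. Here Gm26466 lost its pass without saline 3 (0.59), Gm22496 without saline 1 or CFA6D 4 or 5 (0.61 to 0.99), Gm26488 without saline 3 or CFA6D 4 or 5 (-1.06 to -0.72), and Gm24220 and Gm23047 without any of 5 and 6 libraries. Without saline 3 the counts were 12 on CFA3D and 16 on CFA6D, and without saline 2 the CFA6D count was 14. Gm24926 on CFA6D was the only entry with an adjusted p under 0.05 (limma, adjusted p = 0.0429), as 0.0501% of the table had. It was listed at 0 in the 3 saline libraries, at 0.150 to 0.169 FPKM on CFA3D and at 0.304 to 0.72 on CFA6D, about 2.16 read pairs at most.

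Further snoRNA host lncRNAs showed small differences. Of 12 listed, 9 were found in the lncRNA table and 0 passed against saline on either day. On CFA6D, 8 of the 9 were below saline, with log2 fold changes from -0.39 (Snhg5) to 0.08 (Snhg17) and a median of -0.32, beside -0.01 for all lncRNA gene sums. On CFA3D their median was -0.22. Without saline replicate 3 these medians were -0.20 and -0.11, and quantile normalization left both below 0. Snhg10 changed by -0.33 ± 0.16 on CFA6D (limma, adjusted p = 0.72).

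Genes for proteins that bind or assemble snoRNAs rarely passed. Of the 4 core proteins of box C/D particles, including the methyltransferase Fbl, and the 4 of box H/ACA particles, including the pseudouridine synthase Dkc1, 0 passed against saline on either day, whereas 4.51% of 16466 mRNA gene sums passed on CFA3D and 11% on CFA6D. Of 13 assembly factors, only Znhit3 passed against saline, and it fell on CFA6D. It was at 9.97, 9.11 and 8.22 FPKM in saline, 8.24, 9.37 and 7.12 on CFA3D, and 6.98, 6.17 and 7.12 on CFA6D (-0.42 ± 0.12, limma, adjusted p = 0.243).

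Among 14 factors of nonsense-mediated decay, the pathway that degrades many spliced host RNAs, 0 passed on CFA3D and 4 rose on CFA6D, of which 3 are described. The share of all mRNA gene sums that passed was 4.51% on CFA3D and 11% on CFA6D. Casc3, a subunit of the exon junction complex, was at 11.0, 9.89 and 11.0 FPKM in saline, 12.2, 12.7 and 11.2 on CFA3D, and 13.7, 13.7 and 12.8 on CFA6D (0.33 ± 0.08, limma, adjusted p = 0.189). The helicase Upf1 (0.28) and Smg9 (0.23) rose by less. Upf1 lost its pass without saline replicate 2 or CFA6D replicate 6 (0.20 to 0.24), and Smg9 without any of 4 libraries (saline 2 or 3, CFA6D 4 or 6, 0.17 to 0.24). The median of the list was 0.10 on CFA6D, beside 0.03 for all mRNA gene sums.

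Of 19 TOP mRNAs outside the ribosomal proteins, 0 passed on CFA3D, 3 rose on CFA6D and 1 fell, where 4.51% and 11% of all mRNA gene sums passed. Pabpc1, the poly(A)-binding protein, rose by 0.46 ± 0.14, the initiation factor Eif3f by 0.34 ± 0.10 and the histone chaperone Nap1l1 by 0.23 ± 0.07 (lost under quantile normalization), while the ribosomal scaffold Rack1 fell by 0.27 on the log2 scale (limma, adjusted p = 0.243 to 0.423). Rack1 lost its pass without any of 5 libraries (-0.30 to -0.20). Pabpc1 lost its pass without both saline 3 and CFA6D 6 (0.40) and by its most abundant transcript (0.25). The median of the list was -0.06 on CFA6D, beside 0.03 for all mRNA gene sums.

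The glucocorticoid receptor, which Gas5 RNA can bind, and its target genes formed the list with the largest single change. The list was chosen with earlier results of these data known, so its values are a description and no test of the list. Of 7 genes, 0 passed on CFA3D, while 4 targets rose and the receptor gene Nr3c1 fell on CFA6D. Among all mRNA gene sums, 4.51% passed on CFA3D and 11% on CFA6D. The targets Fkbp5 (0.72 ± 0.33, limma, adjusted p = 0.464) and Zbtb16 (0.48 ± 0.46, adjusted p = 0.743) did not pass on CFA6D. Ddit4, an inhibitor of mTORC1 signalling, was at 26.3, 24.3 and 16.9 FPKM in saline, 26.4, 27.2 and 16.4 on CFA3D, and 69.4, 79.1 and 63.0 on CFA6D. Every CFA6D library was above all others, and the log2 fold change was 1.66 ± 0.22 (limma, adjusted p = 0.0756).

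The kinase Sgk1 was at 33.0, 27.0 and 17.2 FPKM in saline, 34.4, 25.8 and 17.4 on CFA3D, and 49.6, 67.2 and 58.9 on CFA6D (1.22 ± 0.28, limma, adjusted p = 0.161). The clock gene Per1 rose by 1.11 ± 0.30 and Tsc22d3, the leucine zipper protein GILZ, by 0.73 ± 0.32 (adjusted p = 0.207 and 0.442). Tsc22d3 lost its pass without any of 5 libraries (0.40 to 0.80), among them saline replicate 3, and Nr3c1 (-0.30 ± 0.12, adjusted p = 0.414) without any of 4 (-0.31 to -0.22). By its most abundant transcript the Nr3c1 value was 1.27 and did not pass, so its direction depends on how its transcripts are summed. Saline replicate 3 was the lowest saline library for Ddit4, Sgk1, Per1 and Tsc22d3, and CFA3D replicate 3 the lowest CFA3D library for each. Without saline replicate 3 and CFA6D replicate 6 the changes of Ddit4, Sgk1 and Per1 were 1.55, 0.95 and 0.90 and passed. Over the same libraries the summed level of Gas5 differed by at most 1.32-fold.

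The protein-coding genes whose starts lie nearest to those of the hosts were examined as well. Slc3a2, a subunit of amino acid transporters, begins 106 bases from Snhg1 on the opposite strand and was at 54.1, 37.3 and 40.3 FPKM in saline, 51.6, 52.9 and 41.3 on CFA3D, and 53.9, 48.5 and 44.3 on CFA6D. Zbtb37 begins 427 bases from Gas5 on the opposite strand and was at 2.69 to 3.43 FPKM in the 9 libraries. Rcc1, the exchange factor of the GTPase Ran, has a start 81 bases from that of Snhg3 on the same strand, and was at 2.45 to 4.44 FPKM, with 4.44 in CFA6D replicate 6. Neither these 3 genes nor 5 of the other 6 neighbours passed on either day, and Prss12, 61491 bases from Snhg8, rose on CFA6D (0.34, limma, adjusted p = 0.431) but lost its pass without any of 7 of the 9 libraries (0.21 to 0.38). Of 6 genes around Snhg14, among them Ube3a and Snrpn, 5 were tested and 0 passed.

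Over the 9 libraries, the lncRNA gene sums most like Gas5 among 1168 whose mean reached 1 FPKM were Gm49173 (Pearson r = 0.93), 2810429I04Rik (0.93) and Gm45847 (0.90). Among 13325 mRNA gene sums they were 1110032A03Rik (0.96), Clcc1 (0.91) and Lekr1 (0.91). Between Gas5 and the other hosts of the lncRNA table, r ran from 0.02 (Snhg12) to 0.51 (Snhg1). These values describe the same 9 libraries, and the points share their depth and the makeup of each library.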

How the data were processed

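TG RNA was sequenced after ribosomal depletion (Ribo-Zero and TruSeq stranded total RNA per the methods, TruSeq RNA Sample Prep per the labels). The authors deposited FPKM per transcript in tables of lncRNA, mRNA and other noncoding RNA. The methods give mapping to GRCm38, while the submitters' processing notes list Bowtie 0.12.2 and mm8. The program that gave FPKM is not given in the sources used here. Transcript IDs were joined to GENCODE M21 on GRCm38 (15370 of 15657 lncRNA transcripts matched), and coordinates come from that annotation. All sample columns were used (0 left out).

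FPKM was summed per gene within a table. Approximate read pairs came from FPKM, length and the step of low values, so depth covers counting error only. Values were compared as log2(FPKM + 0.1), so fold changes of low transcripts are understated, by limma 3.58.1 (R 4.3.3) with a mean trend over all 9 libraries. The minimum mean for a test was 0.1 FPKM. A pass is an unadjusted p under 0.05, the study's cutoff, and Benjamini-Hochberg adjustment ran over the whole table. Alternatives were pseudocounts of 0.01 and 1, no minimum and a mean of 1 FPKM, quantile normalization, only the groups compared, a fold minimum, the most abundant transcript of a gene, sums over all tables, the replicate block and each library left out in turn. With 3 libraries against 3, an exact permutation p cannot go below 0.1, so none is given. Scripts were tested on simulated data. The labels do not give separate dissections for the pools, so p-values measure the spread between these libraries. Over all lncRNA gene sums, saline and CFA3D libraries of the same replicate number did not deviate alike (correlations of deviations -0.03, -0.10 and 0.10). These correlations do not cover single genes. For Ddit4, Sgk1, Per1 and Tsc22d3, replicate 3 was the lowest library of both groups.

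The host genes, lists and tests were chosen with earlier results of these data known. Named were all hosts, their transcripts and snoRNAs that passed, up to 4 passing genes per list by smallest p, the nearest protein-coding neighbours and the 3 genes per table most like Gas5. Tsc22d3, the fifth of its list, and Fkbp5 and Zbtb16, which did not pass, were added after their values were seen. The values of 1 passing list gene are not reported here. Other tools were Python 3.11.15, numpy 2.4.6, pandas 2.3.3 and matplotlib 3.10.9.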

Additional observations from a re-analysis of the deposited data

Results flagged for a closer look

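In 2 host transcripts, all CFA3D libraries were below and all CFA6D libraries above the saline mean. The share of all lncRNA transcripts with this pattern was not determined, so the count is a description only. Between the days, 5.84% of all 5672 tested lncRNA transcripts passed. Snhg6-204, a spliced form of 400 bases, was at 2.23, 1.49 and 1.40 FPKM in saline, 1.49, 1.37 and 1.17 on CFA3D, and 1.87, 1.97 and 2.29 on CFA6D, a log2 difference between the days of 0.57 ± 0.20 (limma, adjusted p = 0.821) that lost its pass without CFA3D replicate 3 or CFA6D replicate 6 (0.49 each). Snhg12-210, which holds all of Snora16a in its exons, was at 0.456, 0.305 and 0.385 FPKM in saline, 0.288, 0.277 and 0.284 on CFA3D, and 0.498, 0.501 and 0.435 on CFA6D, a log2 difference of 0.59 ± 0.20 (adjusted p = 0.821) at about 14.1 to 29.9 read pairs a library. Both comparisons with saline share the same 3 saline libraries.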

How the results depend on the processing

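Of 51 named values that passed, 20 kept their pass under every alternative in which they were tested, with the fold minimum not counted. Among these 20, Gas5-225 (mean of 0.292 FPKM) was not tested at a mean of 1 FPKM. Casc3 (0.33 on CFA6D) is also among them and is under the fold minimum of 1. Another 31 lost their pass under at least 1 alternative, and 27 of these without at least 1 library. Without 1 library, host sums that passed ran from 0 to 1 on CFA6D and from 0 to 1 between the days (Snhg3 in each case), transcripts from 5 to 8 on CFA6D, host snoRNAs from 5 to 12 on CFA3D and from 9 to 16 on CFA6D, and pathway genes from 0 to 3 on CFA3D. At a mean of at least 1 FPKM, 1, 2 and 3 transcripts passed on CFA3D, on CFA6D and between the days, and 0 snoRNAs on either day. When the change also had to reach 1 on the log2 scale, 2, 4 and 2 transcripts and 3 pathway genes on CFA6D passed. Without a filter on low values, 12 and 17 snoRNAs passed on CFA3D and CFA6D, and 2 pathway genes on CFA3D. Without saline 3 and CFA6D 6, an alternative chosen after seeing the data, 11 snoRNAs and 1 pathway gene passed on CFA3D. By the most abundant transcript of each gene, 3 pathway genes passed on CFA3D and 5 of 8 hosts kept their rank in saline. Without Snhg3-202, also chosen after seeing the data, 1 of 8 kept its rank.

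By the most abundant transcript Nr3c1, which fell on CFA6D, was at 1.27. Host sums that did not pass changed sign. Without saline 3 and CFA6D 6, CFA3D values were 0.003 (Gas5), -0.18 (Snhg3), 0.04 (Snhg14), 0.11 (Snhg20) and -0.01 (Snhg11), CFA6D values 0.01 (Gas5) and 0.48 (Snhg20), and the day difference of Gas5 0.0027. Under quantile normalization they were -0.01 (Snhg12), -0.01 (Snhg11) and 0.03 (Snhg20) on CFA3D, 0.0018 (Snhg20) on CFA6D, and 0.11 (Gas5), 0.14 (Snhg6) and -0.03 (Snhg20) between the days. By the most abundant transcript they were 0.08 (Snhg14, CFA3D) and -0.04 (Snhg1, CFA6D). Without 1 library, CFA3D values ran from -0.14 to 0.003 (Gas5), -0.18 to 0.27 (Snhg3), -0.04 to 0.25 (Snhg6), -0.02 to 0.06 (Snhg8), -0.22 to 0.27 (Snhg12), -0.01 to 0.15 (Snhg11), -0.17 to 0.04 (Snhg14) and -0.43 to 0.38 (Snhg20). On CFA6D they ran from -0.08 to 0.13 (Snhg1), -0.03 to 0.19 (Snhg6), -0.02 to 0.19 (Snhg14), -0.01 to 0.10 (Snhg11) and -0.40 to 0.34 (Snhg20), and between the days from -0.10 to 0.02 (Gas5), -0.14 to 0.15 (Snhg6), -0.42 to 0.06 (Snhg12) and -0.39 to 0.37 (Snhg20). The cause was not tested. With the replicate number as a block, saline and CFA3D alone gave 0 host sums, 5 transcripts and 10 snoRNAs that passed. The depth limits transcripts and snoRNAs of a few read pairs, where 1 pair moves the value.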
